A study of Mus musculus with 8 samples.

Results

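Smooth muscle contractile genes were followed in hearts of mice with a deletion of a conserved Actn2 enhancer. The set comprised 9 genes, Cnn1, Acta2, Actg2, Myh11, Tagln, Smtn, Mylk, Lmod1 and Myl9, chosen by symbol from the 24516 genes of the count table. All 9 were in the table and passed the filter on low counts, as did 15075 genes in all. Bulk RNA sequencing was done on hearts at postnatal day 40 that the labels place in the same litter. There were 2 wild-type hearts, 3 hearts heterozygous and 3 hearts homozygous for the enhancer deletion, which was made with CRISPR/Cas9, and no other allele or treatment is named for any group. The labels give neither the strain, nor the number of founder lines, nor whether a library is 1 heart or a pool, so p-values measure only the spread between these samples. Levels are in CPM, the count of a gene per 1e6 counts of its library, after scaling by the trimmed mean of M-values (TMM).

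Smooth muscle cells contract when calcium-bound calmodulin activates myosin light chain kinase, which phosphorylates the regulatory light chain of myosin and lets it pull on actin. Myosin phosphatase reverses this. The genes of this machinery are switched on largely by serum response factor (SRF) with its coactivator myocardin, through a DNA element called the CArG box. In the heart these genes mark the walls of the coronary vessels and the roots of the great vessels. Several of them are also made by pericytes, activated fibroblasts or immature cardiomyocytes.

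Libraries held 22230090 to 55902737 counts. Wild type 2 stood apart from the rest. Across genes, which are not independent replicates, its correlation was r = 0.952 with wild type 1. With the deletion libraries it was 0.927 to 0.935, and these reached 0.969 to 0.982 among themselves. Wild type 1 correlated at 0.957 to 0.966 with the deletion libraries, above its value with wild type 2. Both comparisons of a deletion genotype with wild type use the same 2 wild-type libraries, and the values of each are given side by side below. The markers of ventricular cardiomyocytes, the muscle cells that the label heart implies, were lower in sum in the deletion hearts, at 78960 to 90460 CPM in wild type, 65490 to 69480 CPM in heterozygous and 64630 to 73010 CPM in homozygous hearts. Their part in the results below was not tested. Actn2 itself, whose protein anchors actin at the Z-disc of sarcomeres, stood at 2187 and 2703 CPM in wild type, 1546 to 1693 CPM in heterozygous hearts and 1611 to 2115 CPM in homozygous hearts. It fell in heterozygous hearts (log2 fold change -0.59, SE 0.16, edgeR adjusted p = 0.0193), a call that did not hold without wild type 2 (-0.40, adjusted p = 0.128), heterozygous 2 (-0.55, 0.0725) or heterozygous 3 (-0.59, 0.0595). Nor did it hold with the replicate number as a block (-0.59, 0.0546), in a fit of the heterozygous and wild-type hearts alone (-0.59, 0.0536) or after the correction for gene properties described further on (-0.27, 0.232). The homozygous value was -0.41 (SE 0.16, edgeR adjusted p = 0.0771). It passed with DESeq2 on all 8 libraries (-0.41, DESeq2 adjusted p = 0.0342) and with edgeR once wild type 1 was left out (-0.55). Counts per gene do not cover the deleted element.

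Most of the contractile genes were lower in both deletion genotypes than in wild type. In homozygous hearts 5 of 9 fell and none rose past an adjusted p of 0.05 (Cnn1, Tagln, Lmod1, Myh11 and Myl9), where 12.4% of all genes tested fell, 15.3% rose and 27.7% changed in either direction. In heterozygous hearts 7 of 9 fell and none rose (the same 5 with Acta2 and Mylk), where 12.8% of all genes fell, 15.2% rose and 28.0% changed. The median log2 fold change of the 9 genes was -1.88 in homozygous and -1.76 in heterozygous hearts, beside -0.03 over all genes tested in each. All calls are from the quasi-likelihood test of edgeR, adjusted over all genes tested. Without wild type 2, a fit with 1 wild-type library left, 1 of 9 genes passed in homozygous hearts (Myh11) and 3 of 9 in heterozygous hearts (Cnn1, Myh11 and Smtn). In that fit 3.58% of all genes tested fell and 10.1% rose in homozygous hearts, and 4.62% fell and 10.5% rose in heterozygous hearts. These shares over all genes, with and without wild type 2, are the background to each count of genes in the lists below.

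**Figure D1:**
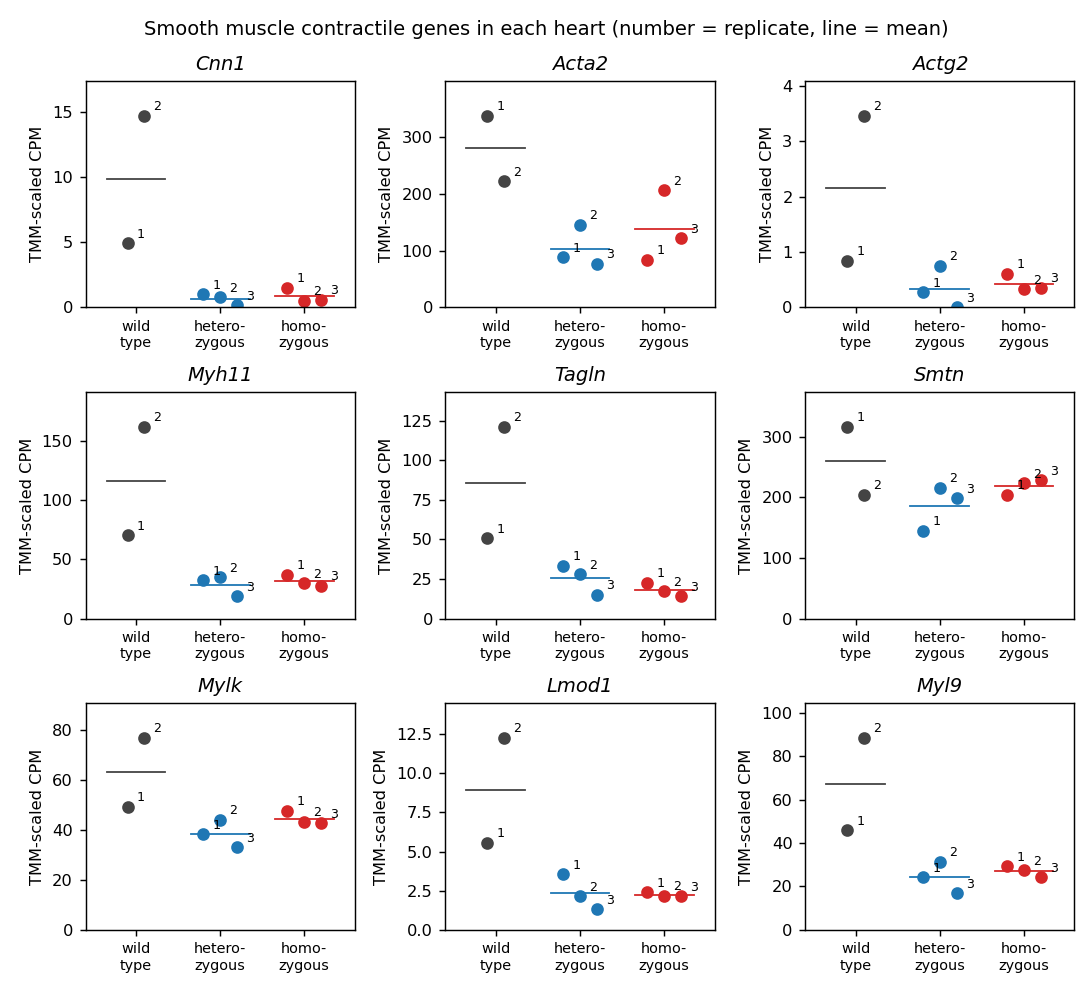
Levels of the 9 smooth muscle contractile genes in each of the 8 hearts, 1 panel per gene, in TMM-scaled CPM on a linear axis from 0; numbers are replicates and lines are group means. All 6 deletion hearts lie below both wild-type hearts in 8 panels, the exception being Smtn, and wild type 2 is the highest point in 7.

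In 8 of the 9 genes all 6 deletion libraries lay below both wild-type libraries, which held for 20.7% of the genes tested. Smtn was the exception. Wild type 2 was the highest library in 7 of 9 genes (30.1% of genes tested) and was at least 1.5-fold above wild type 1 in the same 7 (15.8%). Acta2 and Smtn went the other way, at least 1.5-fold lower in wild type 2. Heterozygous 3 was the lowest library in 7 of 9 genes (9.88%).

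Acta2, the alpha-actin of smooth muscle (ENSMUSG00000035783.9, chromosome 19, 34241090 to 34255590, minus strand, mm10), was the most abundant of the 9 per length. Its level was 337 and 222.5 CPM in wild type, 87.9, 145.8 and 77.2 CPM in heterozygous hearts, and 84.1, 206 and 121 CPM in homozygous hearts. Homozygous 2 stood close under wild type 2, and the other deletion hearts lay well below both wild-type hearts. Against a wild-type mean of 280.0 ± 81.3 CPM (SD, n = 2), Acta2 reached 103.6 ± 36.9 CPM in heterozygous hearts (SD, n = 3) and fell by 1.43 on the log2 scale (SE 0.40, edgeR adjusted p = 0.0299). In homozygous hearts, at 137.2 ± 62.6 CPM (SD, n = 3), the value was -1.03 (SE 0.40, adjusted p = 0.0902). The heterozygous fall no longer passed when any 1 of 4 libraries was left out: heterozygous 1 (-1.30, adjusted p = 0.0793), heterozygous 3 (-1.26, adjusted p = 0.0755), wild type 1 (-1.10, adjusted p = 0.215) or wild type 2 (-1.67, adjusted p = 0.134). The homozygous value passed in 2 alternative fits, among them that without homozygous 2 (-1.44, adjusted p = 0.0195).

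Actg2, the gamma-actin of smooth muscle of hollow organs (ENSMUSG00000059430.14, chromosome 6, 83512905 to 83536265, minus strand), was the least abundant. It had 0.848 and 3.47 CPM in wild type, 0.272, 0.751 and 0 CPM in heterozygous hearts, and 0.611, 0.331 and 0.354 CPM in homozygous hearts. These levels rest on 22 and 100 counts in wild type and at most 24 counts in any deletion heart. The 0 counts of heterozygous 3 allow a level of up to 0.103 CPM, a limit of 3 counts that covers counting error only. The log2 fold changes of -2.33 in homozygous (SE 1.01, adjusted p = 0.111) and -2.63 in heterozygous hearts (SE 1.03, adjusted p = 0.0829) did not pass. The homozygous value passed in 3 alternative fits, among them those without wild type 1 and without heterozygous 3 (edgeR adjusted p = 0.0469 in the latter). The heterozygous value passed in 3 as well, among them those without wild type 1 and without heterozygous 2 (edgeR adjusted p = 0.0488 in the latter).

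Cnn1, calponin 1, an actin-binding protein that restrains the myosin ATPase (ENSMUSG00000001349.5, chromosome 9, 22099216 to 22109630, plus strand), showed the widest difference of the set. Its level was 4.935 and 14.7 CPM in wild type, 0.998, 0.783 and 0.171 CPM in heterozygous hearts, and 1.53, 0.505 and 0.590 CPM in homozygous hearts. All 6 deletion hearts lay far under the lower wild-type heart, and wild type 2 was well above wild type 1. Cnn1 was 11.4-fold lower in homozygous (log2 fold change -3.51, SE 0.69, edgeR adjusted p = 0.00581) and 15.3-fold lower in heterozygous hearts (-3.93, SE 0.72, adjusted p = 0.00391). The deletion hearts gave 5 to 50 counts each, against 128 and 424 in wild type. Without wild type 2 the values were -2.48 (adjusted p = 0.0560) and -2.90 (adjusted p = 0.0304), so the homozygous call was lost.

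Tagln, transgelin or SM22-alpha, binds and bundles actin (ENSMUSG00000032085.5, chromosome 9, 45929619 to 45936058, minus strand). Its level was 50.6 and 121 CPM in wild type, 33.4, 27.9 and 14.98 CPM in heterozygous hearts, and 22.8, 17.2 and 14.3 CPM in homozygous hearts. The groups did not overlap with wild type, and heterozygous 1 was the deletion heart nearest to it. Tagln was 4.75-fold lower in homozygous hearts (log2 fold change -2.25, SE 0.42, edgeR adjusted p = 0.00685) and 3.38-fold lower in heterozygous hearts (-1.76, SE 0.42, adjusted p = 0.0168). Neither call held without wild type 2, at -1.45 and -0.96 (adjusted p = 0.0719 and 0.196). In GENCODE vM21, 67.9% of the exon bases of Tagln overlap genes of the opposite strand, among them Pcsk7, a proprotein convertase. The strand setting of the counting is not known here, so reads of Tagln and Pcsk7 cannot be told apart there. Pcsk7 was at 35.4 and 24.4 CPM in wild type and 31.2 to 41.6 CPM in the deletion hearts, and did not pass the test in either genotype.

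Lmod1, leiomodin 1, which nucleates actin filaments in smooth muscle (ENSMUSG00000048096.7, chromosome 1, 135324807 to 135368065, plus strand), had 5.55 and 12.3 CPM in wild type. Heterozygous hearts had 3.54, 2.13 and 1.30 CPM, and homozygous hearts 2.41, 2.18 and 2.13 CPM. The homozygous hearts lay close together and under both wild-type hearts. Lmod1 was 3.98-fold lower in homozygous (log2 fold change -1.99, SE 0.42, edgeR adjusted p = 0.00693) and 3.87-fold lower in heterozygous hearts (-1.95, SE 0.43, adjusted p = 0.00766). Leaving out wild type 2 ended both calls, at -1.28 and -1.24 (adjusted p = 0.0928 and 0.0993).

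Smtn, smoothelin, a protein of the actin cytoskeleton of contractile smooth muscle (ENSMUSG00000020439.17, chromosome 11, 3517523 to 3540612, minus strand), was the gene that differed least. It had 316 and 204 CPM in wild type, 145, 216 and 198 CPM in heterozygous hearts, and 204, 223 and 228 CPM in homozygous hearts. Wild type 1 stood highest, and wild type 2 lay within the range of the deletion hearts. The log2 fold changes were -0.25 in homozygous (SE 0.21, adjusted p = 0.393) and -0.48 in heterozygous hearts (SE 0.20, adjusted p = 0.104). The homozygous value became 0.10 without wild type 1, and the heterozygous one passed without wild type 2 (-0.73, adjusted p = 0.0250).

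Of the motor proteins, Myh11, the heavy chain of smooth muscle myosin (ENSMUSG00000018830.10, chromosome 16, 14194535 to 14291372, minus strand), had 70.3 and 161.9 CPM in wild type. It had 32.4, 34.8 and 18.8 CPM in heterozygous hearts and 37.0, 29.7 and 27.8 CPM in homozygous hearts. All 6 deletion hearts lay under both wild-type hearts with a wide gap. Myh11 was 3.69-fold lower in homozygous (log2 fold change -1.88, SE 0.35, edgeR adjusted p = 0.00611) and 4.05-fold lower in heterozygous hearts (-2.02, SE 0.36, adjusted p = 0.00439). It still passed in both when wild type 2 was left out (-1.13 and -1.26, adjusted p = 0.0494 and 0.0309). It was the only gene of the 9 that passed in both genotypes in that fit.

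Myl9, the regulatory light chain of smooth muscle myosin (ENSMUSG00000067818.6, chromosome 2, 156775420 to 156781658, plus strand), had 46.0 and 88.5 CPM in wild type. Heterozygous hearts had 24.2, 31.3 and 17.0 CPM, and homozygous hearts 29.3, 27.5 and 24.2 CPM. All 6 were below wild type 1, and the homozygous hearts again lay close together. Myl9 was 2.49-fold lower in homozygous (log2 fold change -1.32, SE 0.29, edgeR adjusted p = 0.00911) and 2.78-fold lower in heterozygous hearts (-1.48, SE 0.29, adjusted p = 0.00551). Neither call held without wild type 2, at -0.74 and -0.90 (adjusted p = 0.111 and 0.0548).

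Mylk, the kinase of that light chain (ENSMUSG00000022836.11, chromosome 16, 34745210 to 35002420, plus strand), had 49.2 and 76.8 CPM in wild type, 38.2, 44.1 and 33.1 CPM in heterozygous hearts, and 47.6, 43.2 and 42.6 CPM in homozygous hearts. Homozygous 1 came just under wild type 1, and no deletion heart reached it. Mylk was 1.64-fold lower in heterozygous hearts (log2 fold change -0.71, SE 0.18, edgeR adjusted p = 0.0166), and the homozygous value was -0.50 (SE 0.18, adjusted p = 0.0656). Leaving out wild type 2 (-0.32, adjusted p = 0.222) or heterozygous 3 (-0.61, adjusted p = 0.0645) ended the heterozygous call. Leaving out wild type 1 let the homozygous value pass (-0.78, adjusted p = 0.00259).

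**Figure D2:**
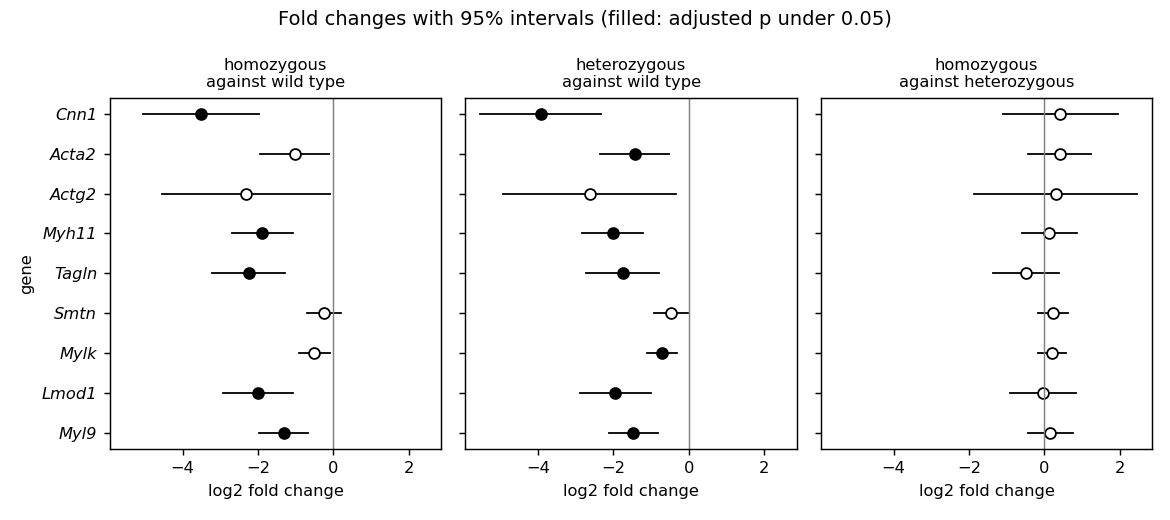
Log2 fold changes of the 9 contractile genes with unadjusted 95% intervals of the edgeR fit as bars, for homozygous against wild type, heterozygous against wild type and homozygous against heterozygous; filled symbols passed an adjusted p of 0.05. The values against wild type run from -3.93 for Cnn1 to -0.25 for Smtn, and those between the deletion genotypes from -0.49 to 0.42, none filled.

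The deletion genotypes were also compared with each other, a contrast without the wild-type mean, although filter, scaling and spread came from all 8 libraries. None of the 9 genes passed with edgeR, where 0% of all genes tested did. At an unadjusted p under 0.05, 411 of 15075 genes and 0 of the 9 passed. DESeq2 called 3 genes and limma-voom none, and neither called any of the 9. Log2 fold changes of homozygous against heterozygous ran from -0.49 for Tagln (95% interval -1.37 to 0.39) to 0.42 for Cnn1 (-1.10 to 1.94). For Acta2 and Mylk, which passed against wild type in heterozygous hearts alone, the values were 0.41 (-0.43 to 1.24) and 0.21 (-0.16 to 0.58). The sign of Cnn1, Acta2, Actg2, Myh11, Lmod1 and Myl9 in this comparison turned when a single library was left out. The intervals of Cnn1, Tagln, Acta2 and Actg2 include a 2-fold change in at least 1 direction, so these hearts leave room for a difference of that size.

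Per kilobase of exon, the wild-type order was Acta2 (127.5 CPM per kb), Smtn (59.4), Myl9 (57.9), Tagln (43.2), Myh11 (15.3), Mylk (5.59), Cnn1 (3.59), Lmod1 (2.26) and Actg2 (1.39). Smtn, Myl9 and Tagln overlapped in their ranges over the 2 wild-type hearts, as did each neighbouring pair among Mylk, Cnn1, Lmod1 and Actg2. In both deletion genotypes Lmod1 ranked above Cnn1, with 0.588 against 0.238 CPM per kb in heterozygous and 0.567 against 0.320 CPM per kb in homozygous hearts. The ranges of Lmod1 and Cnn1 overlapped in both deletion genotypes. The other ranks by mean were as in wild type. Reads shared with other genes were few: at most 0.34% of the 50-base stretches of any of the 9 genes recur in another gene of GENCODE vM21. The overlap with opposite-strand genes was 16.3% of exon bases for Smtn and 6.85% for Mylk, and 0 for the 6 genes other than these and Tagln.

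Promoter windows from RefSeq (GRCm38.p6, 250 bases before to 50 after the start) were matched for 6 of the 9 genes, Cnn1, Acta2, Smtn, Mylk, Lmod1 and Myl9. They were searched on both strands for the CArG box, the SRF element named above: CC, a core of 6 bases that are A or T, and GG. A looser form with at most 1 core base G or C was also searched, and no other motif. The strict box stood in 1 of the 6 genes, Myl9, and in 1.63% of all 32851 windows of the same length. The looser form stood in Acta2 and Myl9 and in 9.98% of all windows. The 4 boxes are shown on the gene's strand as the letters this search found, which describe the windows and show no binding, with the box in capitals and 10 bases on each side.
Acta2, box starting at -84 from the start, chr19:34255438-34255467, minus strand: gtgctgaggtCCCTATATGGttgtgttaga
Acta2, box starting at -34 from the start, chr19:34255388-34255417, minus strand: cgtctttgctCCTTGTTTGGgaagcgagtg
Myl9, box starting at -161 from the start, chr2:156775293-156775322, plus strand: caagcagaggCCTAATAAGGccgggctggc
Myl9, box starting at -99 from the start, chr2:156775355-156775384, plus strand: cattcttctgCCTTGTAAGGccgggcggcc
The box of Myl9 at -161 has a core of A and T alone, and each of the other 3 has 1 core base that is G or C. The windows of Cnn1, Smtn, Mylk and Lmod1 held neither form. Acta2 and Myl9, with a box in this window, and Cnn1, Mylk and Lmod1, without one, all had every deletion heart below both wild-type hearts. Smtn, also without a box, did not.

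**Figure D3:**
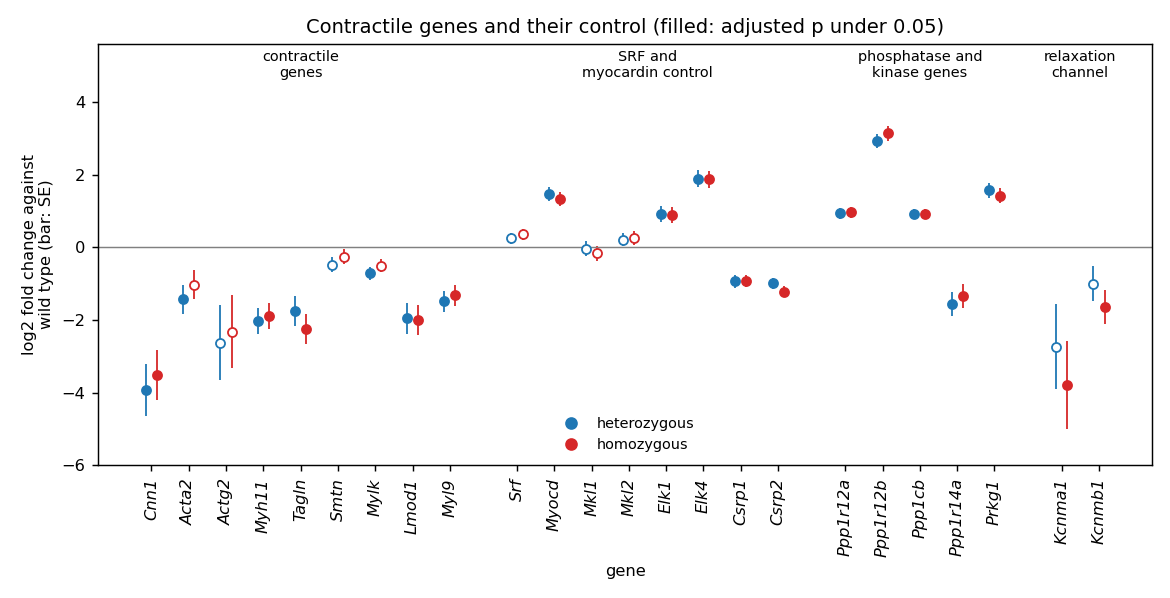
Log2 fold changes of each deletion genotype against wild type, with the standard error of the fit, for the contractile genes beside genes of SRF and myocardin control and of contraction signalling; filled points passed an adjusted p of 0.05. Myocd (1.33 and 1.48) and Ppp1r12b (3.14 and 2.93) lie above 0 while the contractile genes lie below it.

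Among 14 regulators of these genes, 2 fell and 5 rose in both deletion genotypes. In what follows, of a pair of log2 values against wild type the homozygous one comes first unless stated. Myocd, which encodes myocardin, stood at 25.8 and 33.6 CPM in wild type, 70.2, 75.3 and 102 CPM in heterozygous hearts, and 82.5, 71.0 and 70.9 CPM in homozygous hearts. All 6 deletion hearts were at more than 2 times the higher wild-type heart. It rose by 1.33 in homozygous (SE 0.19, edgeR adjusted p = 0.00102) and 1.48 in heterozygous hearts (SE 0.19, adjusted p = 0.000633), the direction opposite to that of the contractile genes. Myocardin is also expressed in cardiomyocytes, and bulk RNA does not show in which cells the change lay. Myocd passed under each alternative run, the lone wild-type fits included. Srf itself had log2 fold changes of 0.36 and 0.25 (adjusted p = 0.102 and 0.257), and its call depended on the setting. It passed as higher in both genotypes after the correction for gene properties (0.75 and 0.67, adjusted p = 0.00759 and 0.0119), also with wild type 2 left out of that fit (0.78 and 0.71, 0.0247 and 0.0356). Without heterozygous 1 it passed in homozygous hearts (0.39, 0.0394). The myocardin-related factors Mkl1 and Mkl2 did not pass either, at -0.17 and -0.03 for Mkl1 and 0.26 and 0.22 for Mkl2, and Mkl1 had the opposite sign in both genotypes without wild type 2. Mkl2 passed as higher without wild type 1 (0.57 and 0.53, adjusted p = 0.0333 and 0.0475).

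Elk4, an ETS factor that binds DNA with SRF, rose by 1.88 in the homozygous and 1.90 in the heterozygous group (adjusted p = 0.00059 and 0.000552). Its level was 18.7 and 9.95 CPM in wild type and 48.0 to 58.3 CPM in the deletion hearts. Elk1, of the same family, rose by 0.90 and 0.92 (adjusted p = 0.0122 and 0.0108), neither of which held without wild type 2 (adjusted p = 0.0595 and 0.0501). Tead1, a factor that binds MCAT elements in muscle genes, rose by 1.33 and 1.39 (adjusted p = 0.000927 and 0.00069). Foxo4, a forkhead factor known to repress myocardin activity, rose by 0.53 and 0.51 (adjusted p = 0.00866 and 0.0102). Elk1 was named after its values were seen. The 2 that fell were LIM proteins of smooth muscle. Csrp2 fell by 1.21 (homozygous) and 0.99 (heterozygous; adjusted p = 0.000568 and 0.00142), and Csrp1 fell by 0.93 and 0.94 (adjusted p = 0.00405 and 0.00358).

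Of 22 genes of contraction signalling, 3 fell and 7 rose in homozygous hearts, and 1 fell and 7 rose in heterozygous hearts. The 7 that rose were the same genes in both genotypes. Ppp1r12b, a targeting subunit of myosin phosphatase abundant in striated muscle, had 23.2 and 14.9 CPM in wild type and 132 to 170 CPM in the deletion hearts. Its log2 fold changes were 3.14 and 2.93 (SE 0.20 and 0.19, edgeR adjusted p = 2.04e-05 and 3.76e-05), and the groups were far apart. Ppp1r12a, the subunit of smooth muscle, rose by 0.97 and 0.94 (adjusted p = 0.00155 and 0.00167), and the catalytic subunit Ppp1cb by 0.91 in each (adjusted p = 0.00142 and 0.0013). Prkg1, the cGMP-dependent kinase that relaxes smooth muscle, rose by 1.42 and 1.57 (adjusted p = 0.00124 and 0.000718).

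The genes of that list that fell were named after their values were seen. Ppp1r14a, or CPI-17, a smooth muscle inhibitor of myosin phosphatase, had 9.91 and 21.8 CPM in wild type and 4.52 to 8.50 CPM in the deletion hearts. It fell by 1.34 (homozygous, adjusted p = 0.0148) and 1.56 (heterozygous, adjusted p = 0.00778). Kcnmb1 and Kcnma1, subunits of the large-conductance potassium channel of smooth muscle, fell in homozygous hearts by 1.65 and 3.79 (adjusted p = 0.0263 and 0.0389). The heterozygous values were -0.998 and -2.74 (adjusted p = 0.141 and 0.106). Kcnma1 rests on 13 and 36 counts in wild type and at most 6 in a deletion heart. Without wild type 2, Ppp1r14a stood at -0.62 and -0.85 (adjusted p = 0.239 and 0.104), and Kcnmb1 and Kcnma1 in homozygous hearts at -1.05 and -2.96 (0.263 and 0.248). The homozygous call of Ppp1r14a also needed homozygous 1 and 3 (-1.15 and -1.28 without them, adjusted p = 0.0540 and 0.0563), and those of the channel subunits each of the 3 homozygous hearts (adjusted p = 0.0642 to 0.102 without 1 of them). Kcnma1 did not pass either with a term for sex (adjusted p = 0.0509), with the block (0.0974), with no filter (0.0547) or without heterozygous 3 (0.0582).

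Among 14 other genes of the smooth muscle cytoskeleton, 5 fell and 2 rose in each deletion genotype. Tpm2, the tropomyosin beta chain, had 33.9 and 80.0 CPM in wild type and 16.9 to 18.9 CPM in the deletion hearts. It fell by 1.66 and 1.62 (adjusted p = 0.0028 and 0.00291), with the 6 deletion hearts within a narrow range. Myl6, the essential light chain of smooth muscle and non-muscle myosin, fell by 0.82 and 0.75 (adjusted p = 0.00859 and 0.0126), and had -0.41 and -0.34 without wild type 2 (adjusted p = 0.0798 and 0.137). Pdlim7, a PDZ and LIM protein of actin filaments, fell by 0.86 and 0.75, and the integrin subunit Itga5 by 0.37 and 0.41; without wild type 2 neither passed (-0.69 and -0.58, and -0.22 and -0.27). The fifth gene that fell was Flna, filamin A, in homozygous hearts (-0.55, adjusted p = 0.0464) and Tpm1, the tropomyosin alpha chain, in heterozygous hearts (-0.41, adjusted p = 0.047), both named after their values were seen. The homozygous call of Flna was lost without wild type 2 (-0.35, adjusted p = 0.308), heterozygous 3, homozygous 1 or homozygous 3 (0.0709 to 0.148). Its heterozygous value passed in other fits, among them the one with the correction for gene properties (-0.67, 0.0291). The call of Tpm1 was lost in 15 alternatives and held in 4. For Itga5 the homozygous call was lost in 13 and held in 6, and the heterozygous one was lost in 7 and held in 12. The falls numbered 1 and 3 of 14 when wild type 2 was left out. Synpo2, synaptopodin 2, an actin-bundling protein of Z-discs and smooth muscle, rose by 1.48 and 1.65 (adjusted p = 0.000134 and 7.2e-05), and Nexn, nexilin, rose by 0.71 and 0.66 (adjusted p = 0.00431 and 0.00546).

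Of 18 paralogs that serve striated or non-muscle cells, 16 could be tested. In homozygous hearts 6 fell and 3 rose, and in heterozygous hearts 6 fell and 2 rose; without wild type 2, 3 fell in each and 2 and 1 rose. After the correction for gene properties 3 fell in each, and 2 and 1 rose. These counts equal those without wild type 2, but the genes that rose were not all the same. Total counts as scaling left 3 falls in heterozygous hearts. Actb, the beta-actin of non-muscle cells, had 453 and 703 CPM in wild type and 195 to 271 CPM in the deletion hearts, and fell by 1.28 and 1.22 (adjusted p = 0.00183 and 0.0021). Actg1, its gamma counterpart, fell by 1.12 and 1.07 (adjusted p = 0.00233 and 0.00274). Myl12b, a regulatory light chain of non-muscle myosin, fell by 1.14 and 1.29 (adjusted p = 0.00204 and 0.00102). The non-muscle heavy chains Myh9 and Myh10 did not pass, at -0.29 and -0.24 for Myh9 and 0.41 and 0.45 for Myh10. Cardiac alpha-actin, Actc1, had values of 0.12 and -0.05 and did not pass. It passed as higher without wild type 1 (0.57 and 0.40, adjusted p = 0.0103 and 0.0488), and its sign turned between settings. Of the calponins of other cells, Cnn2 fell in heterozygous hearts (-0.55, adjusted p = 0.0373, with -0.40 in homozygous). Cnn3 fell in homozygous hearts (-0.52, adjusted p = 0.0293, with -0.29 in heterozygous). Neither call held without wild type 2 (-0.31 and -0.49). The call of Cnn2 was lost in 10 alternatives and held in 9, and that of Cnn3 was lost in 5 and held in 14. A leiomodin of the heart, Lmod2, rose in homozygous hearts (0.65, adjusted p = 0.0357) and had 0.16 in heterozygous hearts. Its homozygous value was 0.43 without wild type 2. That call was lost in 7 alternatives and held in 12. Among the losses were the fits without homozygous 1, homozygous 3 or heterozygous 3 (edgeR adjusted p = 0.104, 0.115 and 0.0505). The cardiac light chain kinase Mylk3 rose by 0.82 and 0.69 (adjusted p = 0.00987 and 0.0194), where Mylk was lower. The heterozygous call of Mylk3 did not hold without heterozygous 2, heterozygous 3 or wild type 2 (0.58, 0.65 and 0.67, adjusted p = 0.0674, 0.0596 and 0.0732). Mylk4, of the same family, rose by 0.82 and 0.87 (adjusted p = 0.0172 and 0.0135). Tagln2, a transgelin of other cells, fell by 0.58 and 0.52 (adjusted p = 0.0188 and 0.0294). Neither call of Mylk4 held without wild type 1 (0.62 and 0.66, 0.0709 and 0.0574), nor the homozygous one without homozygous 1 or 3 (0.0579 and 0.0597). Neither call of Tagln2 held without wild type 2 (-0.53 and -0.47, 0.0855 and 0.117), and the homozygous one also needed homozygous 2 and 3 (0.0526 and 0.0755) and the heterozygous one heterozygous 1 and homozygous 2 (0.0786 and 0.0509).

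**Figure D4:**
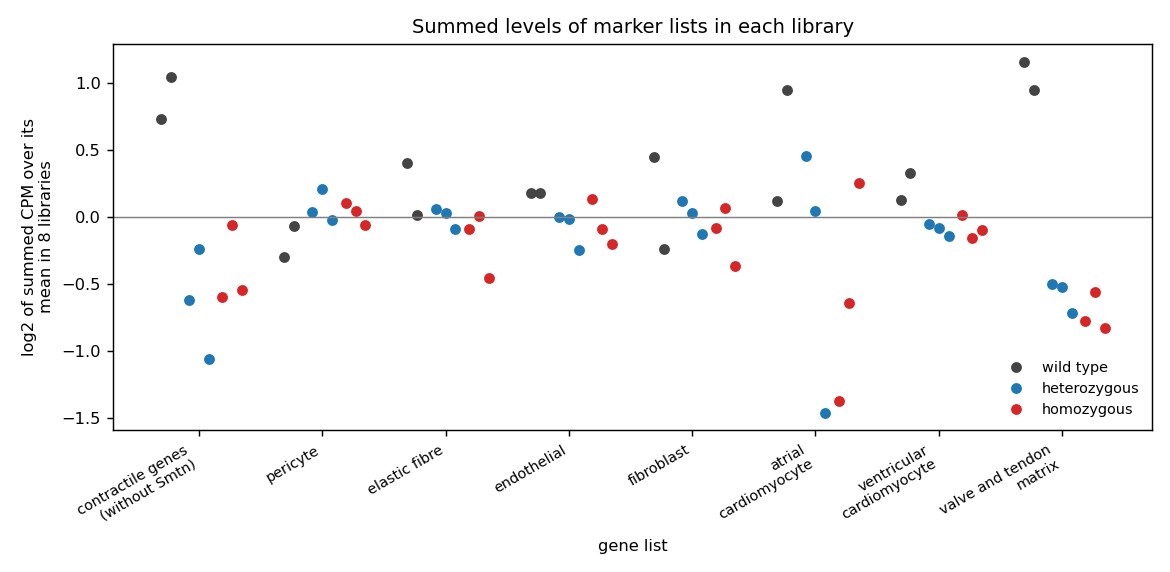
Summed TMM-scaled CPM of each marker list in each of the 8 hearts, as log2 of the sum over its mean in the 8 hearts, for the contractile genes without Smtn and for other cell types of the heart; points are hearts. The contractile sum is 565 and 701 CPM in wild type and 163 to 327 CPM in the deletion hearts, while pericyte markers sum to 1304 to 1850 CPM in all hearts.

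The contractile genes without Smtn summed to 565 to 701 CPM in wild type, 163 to 288 CPM in heterozygous and 225 to 327 CPM in homozygous hearts. In bulk hearts, fewer smooth muscle cells and less RNA of these genes per cell cannot be told apart. Markers of the vessel wall and of other cell types were read beside them. Of 10 pericyte markers 3 fell and 1 rose in homozygous hearts, and 4 fell and 1 rose in heterozygous hearts. Without wild type 2, 1 fell in each, and 1 and 2 rose. After the correction for gene properties 1 rose in homozygous and 1 fell in heterozygous hearts. Ndufa4l2 fell by 0.88 and 0.99 (adjusted p = 0.00311 and 0.00167), Vtn by 0.85 and 1.35 (0.0294 and 0.00395) and Higd1b by 0.81 and 0.80 (0.0192 and 0.0211). Abcc9, a potassium channel subunit, rose by 1.06 and 0.87 (0.00178 and 0.00415). The calls of Vtn and Higd1b did not hold without wild type 2 (-0.67 and -1.17 for Vtn, -0.41 and -0.40 for Higd1b, adjusted p = 0.0510 to 0.267). The homozygous call of Vtn also needed each homozygous heart (0.0588 to 0.0927 without 1), that of Higd1b homozygous 1 and 3 (0.0653 and 0.0704), and the heterozygous call of Higd1b heterozygous 1 and 3 (0.0665 and 0.0691). The median log2 fold change of the 10 was -0.27 and -0.44. Their sum was 1304 to 1531 CPM in wild type, 1582 to 1850 CPM in heterozygous and 1539 to 1725 CPM in homozygous hearts and so was higher in the deletion hearts, while the median was below 0. Rgs5, named after its values were seen, did not pass (0.15 and 0.38, adjusted p = 0.539 and 0.116). It passed as higher in heterozygous hearts without wild type 2 (0.66, 0.0185) and had the opposite sign in both genotypes after the correction (-0.33 and -0.15). Of 8 genes of the elastic fibre of vessel walls, Mfap4, Fbln5 and Emilin1 fell in both genotypes and none rose. Mfap4, a microfibril protein, had 31.5 and 44.4 CPM in wild type and 5.67 to 16.1 CPM in the deletion hearts, and fell by 2.23 and 1.58 (adjusted p = 0.00059 and 0.00276). Eln, elastin itself, did not pass with all libraries (-0.72 and -0.36, adjusted p = 0.155 and 0.475). It passed as lower in both genotypes without heterozygous 1 (-0.69 and -0.78, 0.0353 and 0.0371), and in homozygous hearts with a term for sex (-0.78, 0.0273). The sum of the elastic fibre list was 928.5 to 1218 CPM in wild type, 867 to 957.5 CPM in heterozygous and 671 to 924 CPM in homozygous hearts.

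Of 8 endothelial markers 2 fell in each genotype and 1 rose in heterozygous hearts (2 and 1 fell and none rose without wild type 2). Egfl7 fell by 0.96 and 0.94 (adjusted p = 0.00247 and 0.00252) and Emcn by 0.64 and 0.73 (0.0305 and 0.0180). The calls of Emcn did not hold without wild type 2 (-0.30 and -0.39, 0.344 and 0.205), nor the homozygous one without any 1 homozygous heart or heterozygous 2 (0.0503 to 0.0968), nor the heterozygous one without heterozygous 2 or 3 (0.0524 and 0.0636). They summed to 1274 to 1275 CPM in wild type, 948 to 1124 CPM in heterozygous and 980 to 1237 CPM in homozygous hearts. Of 8 fibroblast markers 1 fell in homozygous hearts and none in heterozygous hearts, and their sums overlapped between all genotypes. Of the 8 markers of activated fibroblasts, 1 fell and 1 rose in homozygous hearts and 1 fell in heterozygous hearts, with sums of 220.5 to 330 CPM in wild type and 219 to 314 CPM in the deletion hearts.

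Markers of cardiomyocytes, of atrial tissue, of valve and tendon matrix and of fat were read too. Of 8 ventricular markers 2 fell and 2 rose in homozygous hearts, and 3 fell and 2 rose in heterozygous hearts. Ryr2, the calcium release channel, rose by 1.12 and 1.20 (edgeR adjusted p = 0.00133 and 0.000896), and Pln by 0.78 and 0.91 (0.0034 and 0.0014). Those that fell were Myl2 (-1.06 and -0.91, 0.0133 and 0.0247) and Tnni3 (-0.76 and -0.71, 0.0171 and 0.0230). Myl3 fell in heterozygous hearts (-0.60, 0.0232). Without wild type 2, and likewise after the correction for gene properties, none fell and 2 rose in each. Of 6 fetal cardiomyocyte markers 2 fell in homozygous and 1 in heterozygous hearts and none rose, with sums of 2679 to 3532 CPM in wild type, 1307 to 4420 CPM in heterozygous and 1797 to 2146 CPM in homozygous hearts. Of 6 tested atrial markers 5 fell in both genotypes, and 4 without wild type 2. The list summed to 349 to 622 CPM in wild type, 117 to 441 CPM in heterozygous and 124 to 382 CPM in homozygous hearts, with heterozygous 1 and homozygous 3 above wild type 1. Sln, sarcolipin of the atria, was at 2.93 and 5.27 CPM in wild type and at 0 in 5 of the 6 deletion hearts. Of 7 genes of valve and tendon matrix 6 fell in both, and 5 in each after the correction for gene properties. Their median log2 fold change was -2.80 and -1.86. Without wild type 2 it was -2.17 and -1.52, and not all calls held in that fit. The list summed to 91.3 to 105.5 CPM in wild type and 26.6 to 33.3 CPM in the deletion hearts. Tnmd, tenomodulin, was at 0 in all 6 deletion hearts. Fat markers summed to 2.47 and 24.8 CPM in wild type, the higher value in wild type 2, and to at most 1.71 CPM in the deletion hearts. Of 6 fat markers 3 were tested and 1, Cfd, fell in both, and none without wild type 2. The part of these cells and tissues in the levels of the contractile genes was not tested.

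**Figure D5:**
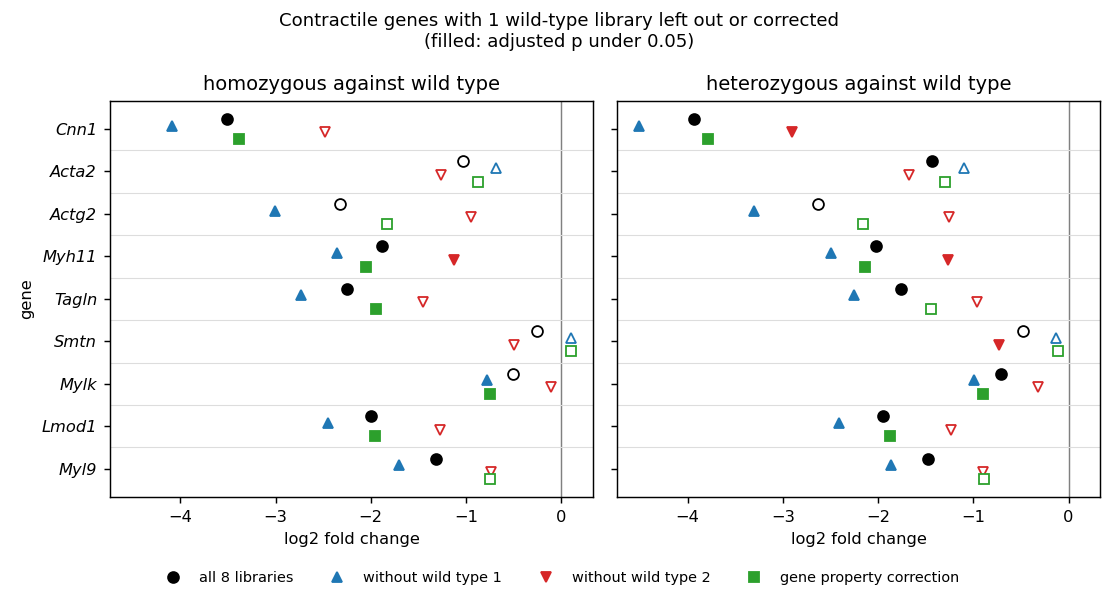
Log2 fold changes of the 9 contractile genes against wild type in the fit of all libraries, without wild type 1, without wild type 2, and after correction for GC content, 3' UTR length and transcript length; filled points passed an adjusted p of 0.05. All points lie below 0 except 2 of Smtn in homozygous hearts, and most lie nearer to 0 without wild type 2 than without wild type 1.

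The fit was repeated after the trend of each library with GC content, 3' UTR length and transcript length had been removed by splines. In homozygous hearts 5 of 9 genes then passed, with Mylk (-0.75, adjusted p = 0.0366) in and Myl9 (-0.75, adjusted p = 0.0952) out. In heterozygous hearts 4 passed, Cnn1 (-3.79), Myh11 (-2.14), Lmod1 (-1.88) and Mylk (-0.90), and Acta2, Tagln and Myl9 did not (adjusted p = 0.0853, 0.0572 and 0.0598). In that fit 5.73% of 13910 genes fell and 8.41% rose in homozygous hearts, and 5.59% fell and 7.79% rose in heterozygous hearts. Myocd and Elk4 passed in it in both genotypes, and Srf was gained as above. Some genes named in the paragraphs on the lists lost their calls in both genotypes. They were Ppp1r12a, Ppp1cb, Ppp1r14a, Myl6, Pdlim7, Itga5, Emilin1, Mylk4, Tagln2, Ndufa4l2, Higd1b, Egfl7, Myl2 and Tnni3. Lost in 1 genotype were Actn2, Csrp2, Nexn, Tpm1, Cnn2, Abcc9 and Myl3 in heterozygous hearts, and Cnn3 and Vtn in homozygous hearts. Ppp1r14a, for example, stood at -0.67 and -0.85 (adjusted p = 0.155 and 0.0843) and Myl6 at -0.50 and -0.40 (0.0829 and 0.156).

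By a rule of likeness, the 5 genes outside the lists with a mean of at least 1 CPM whose log2 levels, centred over the 8 libraries, lay nearest to the mean profile of the 9 genes were Cldn5, Gm11744, Tmem81, Cpt1c and Dnase1l2. Their mean absolute differences from that profile were 0.18 to 0.22 in log2 units. Cldn5, the claudin of endothelial tight junctions, was nearest. It had 49.4 and 97.3 CPM in wild type, 28.8, 26.8 and 17.7 CPM in heterozygous hearts, and 34.8, 27.2 and 21.6 CPM in homozygous hearts. Like most of the contractile genes it was highest in wild type 2 and lowest in heterozygous 3, a likeness that the rule selects for. The 9 genes did not all follow their own mean profile. By the same distance, Myh11, Myl9, Lmod1, Tagln and Mylk ranked 1, 2, 9, 72 and 735 among all genes tested. Acta2, Smtn, Actg2 and Cnn1 ranked 2477, 4029, 4734 and 10572.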

How the data were processed

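Bulk RNA of 8 hearts was analysed. The authors deposited raw counts per gene symbol, with no normalization, 1 column per library. The submitters' processing notes name DESeq2, featureCounts, HISAT2, Subread and Trimmomatic 0.36, and the build mm10. The gene annotation and the strand setting were not given in the sources used here. Counts were filtered with filterByExpr, scaled by TMM and tested in 1 robust quasi-likelihood fit of all 8 libraries (edgeR 4.0.16 in R 4.3.3, two-sided F test, Benjamini-Hochberg over 15075 genes, threshold 0.05). SE is the standard error of a log2 fold change. Libraries held 22230090 to 55902737 counts, so 3 counts are 0.0523 to 0.136 CPM. On simulated data with 200 changed genes the fit recovered 53%, 42% and 60% of 2-fold changes. It recovered 78%, 74% and 74% of 4-fold changes, with 6, 4 and 5 false calls. The order is homozygous against wild type, heterozygous against wild type and homozygous against heterozygous. Far fewer genes changed in the simulation than were called against wild type in the data, and no simulated library stood apart as wild type 2 did. The rates may therefore differ in the data. Not passing does not show the absence of a change. The rule for named genes took all 9 contractile genes, Actn2, up to 6 of each pathway list and 4 of each marker list by smallest p for the deletion genotypes averaged, close paralogs, and the 5 nearest profiles; not all it gave are described, and genes named outside it were chosen after their values were seen. Of the signalling list, 3 genes that rose are counted but not reported here by name, so those named do not stand for the list. The genes and lists were chosen with earlier results of these data known. Alternatives were DESeq2 1.42.0 and its size factors, total counts, no filter, limma-voom (limma 3.58.1), the non-robust fit, fits of the compared groups alone, a replicate block, a sex term from Xist, the gene property correction (splines of 4 df, GENCODE vM21, 13910 genes) and each library left out.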

Additional observations from a re-analysis of the deposited data

How the results depend on the processing

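With 2 wild-type libraries that differ, most calls among the contractile genes depended on wild type 2. Leaving out each library in turn gave 1 to 7 contractile genes called in homozygous and 3 to 8 in heterozygous hearts, and 2135 to 5717 and 2359 to 5634 of all genes (4180 and 4219 with all libraries). A lone wild-type library is assumed to vary like the deletion hearts. After the gene property correction, 5 and 4 contractile genes and 1967 and 1861 of all genes were called. With wild type 2 also left out the counts were 0 and 1, and 732 and 677. Fitting only the groups compared gave 6 contractile genes in each genotype, and 3354 and 2668 of all genes in homozygous and heterozygous hearts. In the same order, DESeq2 gave 5 and 8 contractile genes and 4874 and 4943 of all genes. With limma-voom 6 and 7 contractile genes and 4247 and 4019 of all genes were called. No filter gave 5 and 6, and 3980 and 4020. Between the deletion genotypes, no filter gave 2 genes, DESeq2 3, the correction without wild type 2 gave 1, and leave-one-out fits 0 to 1. The term for sex, set by Xist, which was at 1.74 CPM in wild type 1 and 567 CPM in wild type 2, changed no call among the 9 genes.

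Some values changed sign between settings, and the cause was not tested. With each library left out in turn, homozygous against wild type, Smtn ranged from -0.50 to 0.10, Actc1 from -0.19 to 0.57, Rgs5 from -0.058 to 0.43 and Mkl1 from -0.39 to 0.14. Heterozygous against wild type, Lmod3 ranged from -0.049 to 0.041, Mkl1 from -0.26 to 0.27, Actc1 from -0.36 to 0.40, Lmod2 from -0.065 to 0.48 and Mkl2 from -0.0065 to 0.53. Homozygous against heterozygous, Lmod1 ranged from -0.33 to 0.38, Cnn1 from -0.23 to 0.82, Actg2 from -0.28 to 1.74, Myh11 from -0.10 to 0.30, Myl9 from -0.043 to 0.39 and Acta2 from -0.016 to 0.73. After the correction Smtn was 0.10 and Rgs5 -0.33 in homozygous hearts, and Actc1 0.30, Lmod3 0.034 and Rgs5 -0.15 in heterozygous hearts. With wild type 2 also left out, Actn2 was 0.028, Rgs5 -0.0046 and Cnn2 0.040 in homozygous hearts. In heterozygous hearts Actc1 was 0.0007 with limma-voom and 0.020 with the sex term, and with total counts Lmod3 was 0.0003 and Mkl1 0.0061. Lmod1 between the deletion genotypes was 0.11 with limma-voom.

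With the replicate number as a block, 5 and 7 contractile genes and 3328 and 3376 of all genes were called, and no call among the 9 changed. In that blocked fit Lmod3 was 0.020 in heterozygous hearts against wild type and Lmod1 0.015 between the deletion genotypes. Same-numbered heterozygous and homozygous libraries deviated together at r = 0.178, 0.139 and -0.023, so the numbers were not taken to pair the hearts.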
